A study of Mus musculus with 10 samples.

Results

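Some probe sets of an expression array cannot be credited to a single gene. The array annotation lists more than 1 gene symbol for 1881 of the 35556 probe sets in the deposited table. These 1881 probe sets were chosen by that annotation alone, without regard to any measured value. A run of 6612 probe sets without annotation was taken as the control block of the array and set aside, which left 28944 probe sets for testing. Of these, 21218 list 1 gene and 5845 list none.

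The values come from 10 mouse teratomas, each on its own 1-colour Affymetrix array, in 3 genotypes. All tumours grew from J1 embryonic stem cells of the Sv/129 strain that lack their own Vhl and carry a human VHL cDNA introduced by electroporation. The cDNA was wildtype VHL in 3 arrays, the R167Q mutant in 3 and the P81S mutant in 4. VHL is the substrate-recognition subunit of a ubiquitin ligase that targets hypoxia-inducible factors, and the study asked how tumours with the mutant forms differ from those with the wildtype form. The tumours formed under the skin of both flanks of female nude mice and were taken at a size of up to 1 cm. The labels call the P81S tumours apoptosis-resistant and the others apoptotic. The design text says that the 4 P81S arrays are duplicates of 2 clones, without saying which arrays share a clone, and it gives no number of clones for the other genotypes. A genotype therefore stands for few cell clones. No source says that tumours came from separate animals, so p-values measure only the spread between these arrays. The deleted Vhl gene itself has a probe set of its own, with a mean of 6.91 log2 in wildtype, 6.99 in R167Q and 8.67 in P81S. Where its probes lie relative to the deleted part is not given in the sources used here, so this checks no label.

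A probe set lists several genes where its probes match near-identical copies of a duplicated gene, or where transcripts of neighbouring genes overlap. Duplicated families in the mouse include germline genes clustered on the X chromosome, zinc finger genes, histones, ribosomal protein genes with their processed copies, and the receptors of smell and pheromones. Neighbours that share a stretch of sequence often run towards each other and overlap at their ends. The value of such a probe set is a joint signal, and its share from each gene cannot be told apart.

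The sequences of 4 such families show how alike the listed genes can be. They are given as RefSeq has them, in build GRCm38.p6 of the mouse genome, and they are not the array's probes. The first family is the Mir465 microRNA cluster of the X chromosome, chosen because its probe set lists 4 gene copies. The seed, bases 2 to 8, stands in capitals, and each sequence runs 5′ to 3′. The 5p sequences are encoded at chrX:66835811-66835832 for miR-465b and chrX:66826004-66826025 for miR-465c, and the 3p sequences at chrX:66829212-66829233 and chrX:66825965-66825986, all on the minus strand. The positions given for miR-465b lie farther apart than the length of a hairpin, so they belong to different gene copies.
mmu-miR-465b-5p: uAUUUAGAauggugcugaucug
mmu-miR-465c-5p: uAUUUAGAauggcgcugaucug
mmu-miR-465b-3p: gAUCAGGGccuuucuaaguaga
mmu-miR-465c-3p: gAUCAGGGccuuucuaaguaga
Both 5p sequences carry the seed AUUUAGA, and both 3p sequences carry AUCAGGG. The hairpins of Mir465b-1 and Mir465b-2 were identical over all 79 bases, and those of Mir465c-1 and Mir465c-2 over all 81. The b and c hairpins matched at 76 of 79 aligned bases, or 96.2%.

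The second family is that of Pramel3 and AV320801, shown by their promoters and listed by the probe set with the largest fall in P81S tumours. The windows run from 250 bases before to 50 bases after the annotated start, 300 bases in all, at chrX:135302066-135302365 and chrX:135494338-135494637 on the plus strand. Capitals mark CCAAT or TATAAA, which were searched on both strands. At least 1 CCAAT was present in 37.4% of 32851 mouse promoters of this length, and at least 1 TATAAA in 13.6%.
Pramel3: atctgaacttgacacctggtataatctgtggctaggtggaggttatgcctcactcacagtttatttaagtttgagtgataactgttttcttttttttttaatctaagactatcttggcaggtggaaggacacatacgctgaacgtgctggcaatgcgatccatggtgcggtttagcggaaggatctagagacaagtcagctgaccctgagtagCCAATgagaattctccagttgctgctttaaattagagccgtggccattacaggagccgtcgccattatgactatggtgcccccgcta
AV320801: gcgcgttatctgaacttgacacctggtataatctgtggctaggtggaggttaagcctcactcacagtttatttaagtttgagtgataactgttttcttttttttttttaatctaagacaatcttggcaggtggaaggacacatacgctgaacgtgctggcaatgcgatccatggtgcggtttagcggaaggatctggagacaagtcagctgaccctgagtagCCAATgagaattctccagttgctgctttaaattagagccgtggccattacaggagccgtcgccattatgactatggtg
Each window holds 1 CCAAT and no TATAAA. The windows matched at 288 of 291 aligned bases, or 99.0%. Fthl17e and Fthl17f, ferritin-like genes of the X chromosome, are the third family and are listed together by the probe sets with the next largest fall. Their windows lie at chrX:9033236-9033535 and chrX:9062840-9063139 on the plus strand, with the same motifs in capitals.
Fthl17e: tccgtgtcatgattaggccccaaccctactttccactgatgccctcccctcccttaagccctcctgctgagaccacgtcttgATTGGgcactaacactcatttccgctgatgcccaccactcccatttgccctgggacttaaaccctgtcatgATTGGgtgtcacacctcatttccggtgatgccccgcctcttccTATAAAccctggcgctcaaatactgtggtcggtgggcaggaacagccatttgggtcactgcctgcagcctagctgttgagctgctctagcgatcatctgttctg
Fthl17f: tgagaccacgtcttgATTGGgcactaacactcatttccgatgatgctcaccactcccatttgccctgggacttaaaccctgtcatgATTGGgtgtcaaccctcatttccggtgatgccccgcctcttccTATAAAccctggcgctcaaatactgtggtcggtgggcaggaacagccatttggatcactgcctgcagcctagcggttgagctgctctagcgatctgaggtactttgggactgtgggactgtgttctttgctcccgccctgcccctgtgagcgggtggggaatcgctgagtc
Each holds 2 CCAAT and 1 TATAAA. The windows matched at 221 of 233 aligned bases, or 94.8%, after an offset, so that the annotated starts are not at the same place.

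The fourth family is the inducible heat shock pair Hspa1a and Hspa1b, shown because its probe sets were higher in P81S. The windows lie at chr17:34972107-34972406 and chr17:34959189-34959488 on the minus strand. Capitals mark GAANNTTC or TTCNNGAA, facing pairs of the unit of a heat shock element, again on both strands. Either was found in 15.1% of the 32851 promoters, and GAANNTTC in 7.86%.
Hspa1a: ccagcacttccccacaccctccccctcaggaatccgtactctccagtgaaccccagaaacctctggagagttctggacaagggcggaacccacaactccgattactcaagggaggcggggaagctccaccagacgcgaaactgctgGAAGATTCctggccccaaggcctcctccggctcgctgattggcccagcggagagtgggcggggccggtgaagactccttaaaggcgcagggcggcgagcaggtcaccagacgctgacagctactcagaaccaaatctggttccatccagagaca
Hspa1b: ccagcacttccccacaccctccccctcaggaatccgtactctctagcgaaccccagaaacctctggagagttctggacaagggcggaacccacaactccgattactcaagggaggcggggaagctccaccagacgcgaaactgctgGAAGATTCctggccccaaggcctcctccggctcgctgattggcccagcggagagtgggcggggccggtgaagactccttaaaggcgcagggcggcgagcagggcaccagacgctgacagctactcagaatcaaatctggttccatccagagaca
Each window holds 1 match, which starts 104 bases before the annotated start. The windows matched at 296 of 300 bases, or 98.7%. For the listed pairs as a whole, identical bases were counted as a share of all 300 bases of the window. On that measure Hspa1a and Hspa1b stood at 98.7%, Pramel3 and AV320801 at 96.0%, and Fthl17e and Fthl17f at 73.7%. Hspa1a with Fthl17e, from different families, stood at 59.3%. Over the 149 gene pairs of 1 symbol stem with both promoters in the sequence table, the median was 72.3%, and 44.3% of the pairs reached 80%. Over the 295 pairs of genes with other symbols the median was 44.3%, and 7.46% reached 80%. Over 22 pairs of predicted models 36.4% did, and over 87 pairs of a named gene with a predicted model 10.3%.

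The 1881 probe sets list 2591 different genes. Just 2 symbols are listed by 1310 of them, and the most listed by any is 19. By name, 627 list genes of 1 symbol stem, as Fthl17e and Fthl17f, and 669 list named genes of other symbols. Another 362 pair 1 named gene with predicted gene models, 128 list predicted models only, 52 pair a small RNA gene with another gene and 43 list small RNA genes only. By position, the listed genes overlap in 612 probe sets, lie within 100 kb in 476, lie farther apart on 1 chromosome in 550 and lie on several chromosomes in 213. The other 30 could not be placed. Of the pairs on 1 chromosome with known strands, 286 run tail to tail, 287 run on the same strand, 132 run head to head and 24 lie within each other on opposite strands. Many of these probe sets are not independent of each other. The 1881 hold 1739 distinct sets of values, since 220 share identical values on all arrays with another, and they fall into 989 groups once probe sets with a gene in common are joined.

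The tumours differed in the RNA of tissue markers, and these values stand beside every result that follows. Of 14 pluripotency markers, 13 were lower in P81S than in wildtype, with means over the list of 9.89 to 10.53 log2 in wildtype, 9.01 to 9.92 in R167Q and 6.48 to 7.99 in P81S. Germ cell markers were lower for 9 of 10, cell cycle genes for 10 of 11 and trophoblast markers for 5 of 7, while neural markers were higher for 8 of 10. Their part in the results on gene families was not tested. In bulk tumours, fewer cells of a type and less RNA per cell cannot be told apart. P81S replicate 1 stood apart from the other P81S arrays in 3 lists. It read 9.48 log2 against 6.22 to 6.95 in squamous epithelium markers and 8.42 against 6.45 to 7.18 in gut and glandular epithelium markers. Both values were above every other array. In yolk sac and liver markers it read 8.05 against 6.26 to 7.04, which lay within the wildtype range of 7.08 to 8.29, with R167Q at 6.83 to 7.36. The median of the probe sets that list several genes was 7.11 log2, below the 8.01 of those that list 1 gene, and 710 of the 1881 had a mean below the median of the control block, 5.908 log2, which is not a measured background. Within groups the median SD was 0.193 for them and 0.198 for probe sets with 1 gene.

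In P81S tumours, probe sets that list several genes were more often lower than higher. A probe set is called where limma's adjusted p (Benjamini-Hochberg over the 28944 probe sets) is under 0.05, and differences are on the log2 scale. Against wildtype, 176 of the 1881 were called higher in P81S, or 9.36%, where 14.1% of all probe sets tested were. Called lower were 442, or 23.5%, where 17.0% of all tested were. The median difference was -0.07 over the 1881 and 0.00 over those with 1 gene, of which 16.2% were higher and 17.9% lower. Counting identical values once gave 168 higher and 381 lower of 1739. At a difference of 2-fold or more there were 49 higher and 153 lower, where 1540 and 1462 of the 28944 tested were. The wildtype and P81S arrays did not overlap for 41.2% of the 1881 and for 37.5% of all tested. Of the 989 groups of probe sets with shared genes, 237 held lower members only, 116 higher members only, 8 both and 628 none.

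Against R167Q, 112 were higher in P81S and 308 lower, where the shares over all tested were 9.83% and 10.4%. These counts leaned on R167Q replicate 1, since without it 50 were higher and 147 lower, and without R167Q replicate 3 there were 63 higher. Between R167Q and wildtype, limma called 1 probe set higher and 0 lower, where 0.111% and 0.0207% of all tested were called. At an unadjusted p under 0.05 there were 166 of the 1881, a count not made over all tested. Both P81S comparisons use the same P81S arrays. Called lower in both were 297, and called higher in both were 95, counts likewise not made over all tested.

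The share called differed with what a probe set lists. Among those listing named genes of other symbols, 13.3% were higher in P81S than in wildtype and 23.6% lower. Among those with genes of 1 stem, 5.42% were higher and 18.3% lower, around a median level of 5.22 log2. With 1 named gene and predicted models, 8.56% were higher and 26.5% lower, and with predicted models only, 10.9% and 13.3%. Where genes lie on several chromosomes, which is how processed copies of a gene are usually placed, 7 were higher and 94 lower of 213. Their median level was 10.77 log2 and their median difference -0.27, while the other placements had medians of -0.09 to -0.02. Among pairs running tail to tail, 36 were higher and 72 lower of 286, and among pairs running head to head, 13 and 16 of 132. On the X chromosome 6 were higher and 43 lower of 109, while on chromosome 8 there were 16 and 7 of 84. On chromosome 11, where 8 were higher and 30 lower of 112, the P81S arrays were not alike. The median deviations from the mean of the wildtype and R167Q arrays were -0.22, -0.31, -0.11 and -0.02 in P81S replicates 1 to 4.

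Germline and early embryo families fell the furthest. The probe set of AV320801, Gm5128 and Pramel3, which belong to the Prame family of genes active in germ cells and preimplantation embryos, read 11.54, 11.47 and 11.68 log2 in the wildtype arrays, 11.33, 10.67 and 11.12 in R167Q, and 6.72, 7.17, 7.97 and 6.31 in P81S. All 4 P81S values lay below every other array by more than 2 log2 units, and R167Q lay just below wildtype without overlap. P81S was lower than wildtype by 23.0-fold, a difference of -4.52 ± 0.32 (SE) with limma's adjusted p = 1.83e-05, and lower than R167Q by -4.00 with adjusted p = 0.000221. Their 5 probe sets, with 4 distinct sets of values, lay between -4.71 and -4.52. Across the Prame, Oog and Tdpoz families, 39 of 54 probe sets were lower and 0 higher (38 distinct sets of values in 10 groups, median -0.81). Of 27 probe sets with 1 such gene, 8 were lower. The Pramel34 cluster of chromosome 5 gave 16 lower of 19 at a median of -1.11, and the Pramel37 cluster, also there, 11 of 13 at -0.82. Against R167Q, 23 of the 54 were lower, and 5 without R167Q replicate 1 or 9 without P81S replicate 4.

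Fthl17e and Fthl17f encode proteins related to the ferritin heavy chain. Their brightest probe set read 10.11, 10.06 and 10.74 log2 in wildtype, 9.38, 8.21 and 9.72 in R167Q, and 6.14, 6.17, 5.75 and 5.51 in P81S. The P81S arrays lay near the median of the control block, and the 3 groups did not overlap. The difference between P81S and wildtype was -4.41 ± 0.33, with limma's adjusted p = 1.88e-05. All 3 probe sets of the pair were lower, by -4.41 to -4.23. Probe sets of the single genes read -4.16 for Fthl17e and -2.62 for Fthl17f, while Fthl17a, at -0.04, was not called.

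Cancer-testis genes of the X chromosome, which are silent in most adult tissues outside the testis, showed the same order of groups. Magea3 and Magea8 read 6.92, 7.48 and 7.60 log2 in wildtype, 6.46, 5.19 and 6.27 in R167Q, and 3.90, 4.15, 4.17 and 4.14 in P81S. The P81S arrays were again the lowest, with R167Q between them and wildtype. The difference was -3.24 ± 0.28 with limma's adjusted p = 3.41e-05, and the R167Q difference of -1.36 had adjusted p = 0.208. The wider probe set of Magea1 to Magea8 gave -3.58 and that of Mageb16 with its pseudogene -3.20. Of the 9 Mage and Ssx probe sets, 5 were lower and 0 higher (median -3.20), while among 26 with 1 gene, 9 were lower and 6 higher. Dmrtc1c1 and Dmrtc1c2, tail-to-tail copies related to the doublesex family, fell by 3.65 (limma's adjusted p = 1.86e-05).

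Genes that mark the 2-cell stage of the embryo, and a small share of embryonic stem cells in culture, were lower too. Zscan4c, Zscan4d and Zscan4f, zinc finger genes tied to telomere upkeep, read 8.31, 9.32 and 9.38 log2 in wildtype, 9.72, 8.52 and 8.45 in R167Q, and 5.93, 7.30, 6.57 and 5.58 in P81S. Wildtype and R167Q overlapped, and P81S lay below both. P81S differed from wildtype by -2.66 ± 0.44 (limma's adjusted p = 0.000991). In the list with Tcstv, Usp17, Dub, Eif1a-like and Obox genes, 5 of 10 were lower and 0 higher at a median of -0.67. The Eif1a-like set with Gm2022 and Gm8300 fell by 1.11. Duxbl1 and Duxbl2, double homeobox genes, fell by 1.69 and the Cphx1 to Cphx3 homeobox genes by 1.81. Nlrp4c and Nlrp4e, NOD-like receptor genes of the oocyte, fell by 1.50 in their joint probe set, while the probe set of Nlrp4c alone fell by 4.29 and that of Nlrp4e alone by 0.94.

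The sex-linked Xlr, Slx, Sly and Ssty families, multicopy genes of germ cells, moved in both directions. Of 38 probe sets, 21 were lower in P81S and 6 higher. The lower ones were X-linked. Xlr5a, Xlr5b and Xlr5c read 11.74, 11.89 and 11.92 log2 in wildtype, 11.57, 11.30 and 11.14 in R167Q, and 9.03, 10.67, 10.50 and 7.66 in P81S, a difference of -2.39 ± 0.57 (limma's adjusted p = 0.00847). P81S replicates 1 and 4 were lower than replicates 2 and 3, and all 4 lay below the other arrays. The same split appeared for Xlr4a, Xlr4b and Xlr4c, which read 7.16 and 7.17 in P81S replicates 1 and 4 but 8.74 and 8.67 in replicates 2 and 3. In the Slx group of the X chromosome, 14 of 25 were lower at a median of -0.97, though these hold 9 distinct sets of values. The higher ones were all on the Y chromosome and are described with it. Their count fell to 0 without P81S replicate 2, P81S replicate 3 or any wildtype array, and to 1 without P81S replicate 4.

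Zinc finger genes, whose KRAB-type members include silencers of transposable elements, were lower in some clusters. Gm10324 and Zfp640 of chromosome 13 read 10.37, 10.77 and 10.98 log2 in wildtype, 10.71, 9.71 and 10.55 in R167Q, and 6.41, 7.98, 6.90 and 5.34 in P81S. The P81S values ranged over more than 2 log2 units, yet the highest lay below every other array. The difference was -4.05 ± 0.49 with limma's adjusted p = 0.000183, and the pair's 4 probe sets lay between -4.05 and -3.15. All 11 probe sets of the chromosome 4 cluster around Zfp534, Rex2 and Zfp600 were lower, at a median of -2.25 and a range of -3.03 to -1.43, and all 11 were lower against R167Q. Zfp534 and Zfp987 in that cluster read 12.05 to 12.28 in wildtype, 11.53 to 12.16 in R167Q and 9.72 to 10.71 in P81S. EU599041, Zfp936 and Zfp975 of chromosome 7 fell by 2.21.

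Other zinc finger clusters were not called. The chromosome 2 group with Zfp931 and Zfp966 had 0 called of 15, at a median of -0.24 and a level of 11.25 log2. Over all 48 zinc finger probe sets, 27 were lower and 1 higher, with a median of -0.69, and 27 were lower against R167Q. Of 389 probe sets with 1 zinc finger gene, 59 were lower and 36 higher at a median of -0.02. Leaving out any single array left between 26 and 30 lower against wildtype.

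Probe sets of small RNA genes fell in large part. Small nucleolar RNAs guide the modification of ribosomal RNA and are mostly processed from introns of host genes. All 13 of their probe sets were lower in P81S than in wildtype, at a median of -1.35, as were 54 of 68 probe sets with 1 such gene at -1.31. Snord1b and Snord1c read 6.51, 6.64 and 7.06 log2 in wildtype, 6.13, 5.90 and 5.70 in R167Q, and 4.72, 5.32, 5.32 and 4.99 in P81S. The groups did not overlap, and P81S differed from wildtype by -1.65 ± 0.20 (limma's adjusted p = 0.000158). Rpl13a with Snord32a in its intron fell by 0.66, and the probe set of Rpl13a alone by 0.59. Against R167Q, 9 of the 13 were lower, but 1 without R167Q replicate 1 and 5 without P81S replicate 4. The labelling began from an oligo(dT) primer, and small RNAs of these classes mostly lack a poly(A) tail, so what these probe sets detect is not given in the sources used here.

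Spliceosomal and other small nuclear RNA genes followed. The Rnu1b genes encode U1, which recognises the start of introns. They read 9.66, 8.92 and 9.10 log2 in wildtype, 9.33, 8.88 and 7.93 in R167Q, and 7.64, 7.32, 6.66 and 6.18 in P81S. P81S lay below both other groups, by -2.28 ± 0.39 against wildtype (limma's adjusted p = 0.00113). Its 9 probe sets hold 3 distinct sets of values. The Rnu3b genes encode the nucleolar U3 RNA. They read 9.30, 9.38 and 9.16 in wildtype, 9.33, 9.08 and 9.17 in R167Q, and 8.69, 8.40, 8.40 and 8.32 in P81S, a difference of -0.83 ± 0.12 (limma's adjusted p = 0.000593). A separate probe set of Rnu3a fell by 1.97 and that of Rnu2-10 by 1.26.

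MicroRNA genes were less uniform, with 30 lower and 6 higher of 67 and a median of -0.08, where 310 probe sets with 1 microRNA gene had 12 lower and 14 higher. The lower count rested on copies of the same values. It was 8 without P81S replicate 1, P81S replicate 3, wildtype replicate 2 or wildtype replicate 3, because the Mir669a and Mir467 probe sets then lost their calls, and 17 without wildtype replicate 1, where the Mir669a probe sets lost theirs. The 13 probe sets of Mir669a-2 and Mir669a-3 share 1 set of values. These were 4.97, 4.95 and 4.97 log2 in wildtype, 5.92, 4.66 and 4.79 in R167Q, and 3.41, 4.36, 4.12 and 4.24 in P81S, a difference of -0.93 ± 0.30 (limma's adjusted p = 0.0337, and up to 0.0909 with an array left out). The 9 probe sets of Mir467b, Mir467c and Mir467d also share 1 set of values. They read 3.95, 4.60 and 4.38 in wildtype, 5.07, 3.96 and 4.23 in R167Q, and 3.34, 3.61, 3.61 and 3.62 in P81S, a difference of -0.77 ± 0.24 (limma's adjusted p = 0.0288, and up to 0.12 with an array left out). Both microRNA clusters lie in an intron of Sfmbt2, a Polycomb group gene whose own probe set was brighter and fell by 1.61 (limma's adjusted p = 0.000282).

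The Mir465 copies whose sequences are given above read 4.10, 5.17 and 5.38 log2 in wildtype, 4.32, 3.14 and 4.13 in R167Q, and 3.04, 3.25, 3.09 and 3.04 in P81S. The P81S arrays differed little from each other and lay below wildtype, while R167Q replicate 2 lay among them. The difference from wildtype was -1.78 ± 0.32 (limma's adjusted p = 0.0015), and every array lay below the median of the control block. Mir21a with Vmp1, a gene of autophagy that overlaps it, fell by 0.75, and Mir678 with the methyltransferase gene Prmt2 rose by 0.99. Counting small RNA genes only, 39 of 43 probe sets were lower, and these 39 fall in 6 groups and 8 distinct sets of values. That count was 17 without P81S replicate 1, P81S replicate 3, wildtype replicate 2 or wildtype replicate 3, and against R167Q it went from 37 to 4 without R167Q replicate 1.

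Families of abundant housekeeping genes moved little but in 1 direction. Ribosomal proteins, the subunits of the ribosome, have processed copies on many chromosomes. Of their 39 probe sets, 27 were lower in P81S than in wildtype and 0 higher, at a median of -0.37, and 254 of 389 with 1 ribosomal protein gene were lower at -0.34. Rps16 and its pseudogene read 12.76, 12.60 and 12.59 log2 in wildtype, 12.50, 12.40 and 12.63 in R167Q, and 12.24, 11.97, 11.90 and 11.84 in P81S, a difference of -0.66 ± 0.10 (limma's adjusted p = 0.000552). The P81S arrays lay below all others. Rps23 with Gm5148 fell by 0.58. All 11 probe sets listing Rpl35a with Ino80 were lower at -0.49 and all 10 listing Rpl30 at -0.37, while the 6 listing Rpl29 had 0 called at -0.02. Without wildtype replicate 2 the count of lower ribosomal probe sets was 14, and without wildtype replicate 3 it was 16.

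Core histones package DNA, and most of their genes are transcribed in S phase. Of 54 histone probe sets, 4 were lower in P81S and 0 higher, although the median difference was -0.30. The probe set of H2bc4, H2bc11 and other H2B copies read 12.72, 12.81 and 12.65 log2 in wildtype, 12.66, 12.70 and 12.78 in R167Q, and 12.55, 12.49, 12.41 and 12.02 in P81S. P81S replicate 4 was the lowest and replicate 1 the nearest to the other groups. The difference was -0.36 ± 0.11 (limma's adjusted p = 0.0287). Every array moved this count. It rose to 37 without P81S replicate 1, to 16 without P81S replicate 2 and to 7 without P81S replicate 4, and it was 0 to 2 without P81S replicate 3 or any array of the other genotypes. Among 52 probe sets with 1 core histone gene, 25 were lower at a median of -0.43. Cell cycle genes, 10 of 11 lower, averaged 9.50, 9.55, 9.03 and 8.31 log2 over the P81S arrays in replicate order, against 10.18 to 10.91 elsewhere. Their part in the histone values was not tested.

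Other duplicated housekeeping genes were mostly not called. Gapdh, a glycolytic enzyme often used as a reference, is listed with predicted copies by 24 probe sets, of which 0 were called at a median of 0.06. That of Gapdh with Gm12070 and Gm5523 read 13.40 to 13.46 log2 in wildtype, 13.48 to 13.50 in R167Q and 13.46 to 13.51 in P81S. The P81S range met both others, and R167Q lay just above wildtype. P81S differed from wildtype by 0.07 (limma's adjusted p = 0.222). The alpha tubulins Tuba1a, Tuba1b and Tuba1c differed by 0.11 (limma's adjusted p = 0.0653). The beta tubulins Tubb2a and Tubb2b, which neurons use in quantity, rose by 0.48 with limma's adjusted p = 0.0041. A group of 26 probe sets around 2610042L04Rik, predicted genes on several chromosomes, had 0 called at a median of 0.30 against wildtype, and R167Q stood at 0.39.

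Joint probe sets of the adult globins and of the Hsp70 pair rose in P81S, and their R167Q values stood near those of P81S. Hba-a1 and Hba-a2, the adult alpha globin genes of red cells, read 12.55, 12.01 and 11.90 log2 in wildtype, 12.96, 13.53 and 13.80 in R167Q, and 13.55, 13.54, 13.26 and 13.96 in P81S. All 7 mutant arrays lay above the wildtype arrays, and the mutants overlapped each other. P81S differed from wildtype by 1.42 ± 0.22 (limma's adjusted p = 0.000651) and R167Q by 1.28 (adjusted p = 0.0917). R167Q replicate 1 was the lowest mutant array, and without it limma called all 4 globin probe sets higher in R167Q too. Between P81S and R167Q the difference was 0.15 (adjusted p = 0.715). Hbb-b1 and Hbb-b2, the beta globins, gave 1.44 and 1.31 in the same 2 comparisons. All 4 joint globin probe sets were higher in P81S, at a median of 1.43. The 4 probe sets with 1 globin gene, at a median level of 5.37 log2, below the median of the control block, did not follow them in P81S. There 0 were called against wildtype at a median of -0.44, and 1 was called lower than in R167Q at a median of -1.63. In R167Q against wildtype their median was 1.18, from 0.05 to 1.25, with 0 called. Of 7 erythroid markers with probe sets of their own 1 was higher, and their mean difference was 0.75 in P81S and 0.82 in R167Q. Globin RNA comes from red cells, which the host also supplies, and the part of blood content was not tested.

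Hspa1a and Hspa1b encode the inducible form of Hsp70, a chaperone made under heat and other protein stress. Their brightest probe set read 9.10, 8.35 and 8.81 log2 in wildtype, 10.44, 10.28 and 9.81 in R167Q, and 10.02, 10.83, 10.53 and 10.83 in P81S. Every mutant array lay above every wildtype array. P81S differed from wildtype by 1.80 ± 0.24, or 3.48-fold (limma's adjusted p = 0.000284), R167Q by 1.42 (adjusted p = 0.0846), and the mutants from each other by 0.38 (adjusted p = 0.321). The R167Q difference was called without P81S replicate 1 and with array weights. The 3 probe sets of the pair, whose near-identical promoters are printed above, were higher in P81S by 0.60 to 1.87. On the list of 6 joint heat shock probe sets 3 were called higher than in wildtype and 0 lower. These 3 are the probe sets of the pair itself, and the list leaves out Cryab with Hspb2. Heat shock genes as a whole did not rise, since of 98 probe sets with 1 such gene 19 were higher and 33 lower, at a median of -0.13. Cryab and Hspb2, small heat shock proteins that lie next to each other on chromosome 9, read 6.74 to 7.50 in wildtype, 7.72 to 7.88 in R167Q and 8.10 to 9.36 in P81S. Their 3 groups did not overlap, and P81S was higher than wildtype by 1.67 (limma's adjusted p = 0.00082). With a sequence shared between 2 genes, none of these values says which copy was transcribed.

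Several of the largest rises were of neighbouring pairs that include a gene with a known role in neurons. Cyfip2, which regulates actin in neurons, holds Fndc9 within it on the other strand. Their probe set read 6.50, 6.51 and 5.95 log2 in wildtype, 5.94, 6.50 and 7.10 in R167Q, and 8.25, 8.40, 8.22 and 8.81 in P81S. The P81S arrays lay more than 1 log2 unit above the others. The difference was 2.10 ± 0.27 (limma's adjusted p = 0.000223), while the probe set of Cyfip2 alone rose by 0.61 from a wildtype mean of 11.24. Lin7b, a synaptic scaffold protein, with Mtag2 rose by 1.87 and ranged from 8.43 in P81S replicate 1 to 10.04 in replicate 4. Nrsn2, a vesicle protein of neurons, with Gm14164 read 8.50 to 8.91 in wildtype, 8.41 to 9.11 in R167Q and 10.27 to 10.87 in P81S, a rise of 1.84 (limma's adjusted p = 0.000105).

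Scn2a and Scn9a encode voltage-gated sodium channels. They read 7.32, 6.64 and 7.05 log2 in wildtype, 7.63, 7.91 and 7.38 in R167Q, and 8.13, 8.82, 8.84 and 8.71 in P81S. The 3 groups stood in that order without overlap. P81S was higher than wildtype by 1.62 ± 0.22 (limma's adjusted p = 0.000339), and R167Q by 0.64 (adjusted p = 0.451). All 4 sodium channel probe sets were higher, at a median of 1.17, and the probe sets of Scn2a and Scn9a alone rose by 1.52 and 1.08.

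More pairs rose by a similar amount. Kif3c, a kinesin motor of axons, with 1110002L01Rik at its tail end rose by 1.59 (limma's adjusted p = 5.86e-05), and Cers1, the ceramide synthase of neurons, with Gdf1 on the same transcript unit by 1.49 (limma's adjusted p = 5.13e-05). Fchsd1 with Rell2 rose by 1.59, Tcte1 with Tmem151b by 1.36, Lrp3 with Slc7a10, an amino acid transporter of the brain, by 1.30, and Arhgap20 with its antisense gene by 1.29. The alpha protocadherins, adhesion proteins with which neurons tell themselves from others, are listed together by 1 probe set that rose by 1.23 (limma's adjusted p = 0.000486). Of 36 probe sets with 1 protocadherin gene, 33 were higher. Which strand the probes read is not given in the sources used here, so sense and antisense partners cannot be told apart. Neural markers rose beside these pairs, with list means of 10.53 to 10.94 log2 in wildtype, 10.78 to 11.21 in R167Q and 11.35 to 11.72 in P81S. The part of neural tissue content in the pairs was not tested.

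Nusap1, a spindle protein, and Oip5, a centromere loading factor, stand head to head on chromosome 2. They read 10.21, 10.22 and 10.43 log2 in wildtype, 10.16, 10.17 and 9.92 in R167Q, and 9.60, 9.88, 9.04 and 8.70 in P81S, a difference of -0.98 ± 0.24 (limma's adjusted p = 0.00836). All P81S arrays lay below the others, with replicates 3 and 4 lowest. Cdc23, of the anaphase-promoting complex, with the mitotic kinesin Kif20a fell by 0.35. That call was lost in 8 of 24 alternatives, with limma's adjusted p up to 0.119, among them each fit without P81S replicate 3 or 4, any wildtype array or R167Q replicate 2. Vrk2, a kinase, and Fancl, the ubiquitin ligase of the Fanconi pathway, run tail to tail on chromosome 11. Their 2 joint probe sets fell by 1.05 and 1.26, whereas Vrk2 alone differed by 0.03 and Fancl alone by -0.01.

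Interferon-induced families were lower. Tgtp1 and Tgtp2, immunity-related GTPases, read 7.75, 8.56 and 7.90 log2 in wildtype, 8.17, 7.93 and 8.40 in R167Q, and 6.49, 6.44, 6.20 and 6.36 in P81S. Wildtype and R167Q overlapped, and P81S lay below both, by -1.70 ± 0.20 against wildtype (limma's adjusted p = 0.000154). Slfn8 and Slfn9, Schlafen genes, fell by 1.34 and Oas1a with Oas1g, sensors of double-stranded RNA, by 0.81. On the interferon-induced list, which leaves out Tgtp, 4 of 7 were lower and 0 higher at a median of -0.81, and 15 of 59 with 1 gene were lower. Against R167Q, 5 of 7 were lower, with 2 to 3 without P81S replicate 2 or any R167Q array. None of 21 interferon ligand probe sets was called, and 0 of 10 macrophage markers were. Of 8 lymphocyte and neutrophil markers 2 were lower, with list means of 5.14 to 5.68 log2 in wildtype, 5.23 to 5.42 in R167Q and 5.01 to 5.42 in P81S, and their part in these values was not tested.

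Ccl27a, a chemokine with several copies on chromosome 4, was higher. With Gm13306 and Gm21953 it read 10.65, 10.57 and 10.24 log2 in wildtype, 10.57, 10.90 and 10.41 in R167Q, and 10.89, 11.62, 11.46 and 11.44 in P81S. P81S replicate 1 lay below R167Q replicate 2 and above every wildtype array. The rise was 0.86 ± 0.18 (limma's adjusted p = 0.00368). The 12 probe sets joined to it by shared genes, with 9 distinct sets of values, were all higher at a median of 0.85. Among 8 chemokine probe sets 4 were higher, all of them Ccl27a. Against R167Q the 4 fell to 0 without R167Q replicate 1 or 3, and to 1 without P81S replicate 3.

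Some joint probe sets of genes expressed from 1 parental copy rose. Snrpn and Snurf share a transcript of the Prader-Willi region, and it read 11.90, 11.59 and 11.69 log2 in wildtype, 11.62, 11.99 and 11.61 in R167Q, and 12.26, 12.53, 12.49 and 12.51 in P81S. The P81S arrays were all above the others, by 0.73 ± 0.11 against wildtype (limma's adjusted p = 0.000664). Rtl1, a retrotransposon-derived gene of the Dlk1-Dio3 region, with Mir431 rose by 0.69. On the list of 9 joint imprinted probe sets 4 were higher and 0 lower, and 2 were higher without P81S replicate 3, wildtype replicate 1 or wildtype replicate 2. Of 11 probe sets with 1 imprinted gene, 1 was higher and 2 were lower, at a median of 0.01. Rtl8a, Rtl8b and Rtl8c, X-linked genes of related origin, rose by 1.21 (limma's adjusted p = 8.14e-05). Thra, the thyroid hormone receptor alpha, and the clock gene Nr1d1 overlap at their ends, and their probe set rose by 0.96 (limma's adjusted p = 0.0011).

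On the Y chromosome, the germline families Ssty1 and Ssty2 did not follow genotype alone. The 13 probe sets of the Ssty2 group averaged 4.10, 3.91 and 4.22 log2 in wildtype, 5.05, 4.96 and 4.21 in R167Q, and 4.17, 4.99, 5.09 and 4.90 in P81S. R167Q replicate 3 and P81S replicate 1 thus stood at the wildtype level while the other mutant arrays stood above it. The 8 probe sets of Ssty1 with Gm20831 averaged 3.92, 4.06 and 4.15 in wildtype, 4.88, 4.71 and 4.11 in R167Q, and 4.23, 4.45, 4.55 and 4.33 in P81S, again with R167Q replicate 3 among the wildtype arrays. In the Ssty2 group 8 of 13 were called higher in P81S than in wildtype, at a median of 0.76, and 0 in R167Q at 0.73. Of the 8 Ssty1 probe sets, 0 were called. All of these values lay below the median of the control block.

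The single-copy Y genes Eif2s3y, Kdm5d and Uty, which are active in male cells of any kind, separated both mutant groups from wildtype on every array. Their mean was 4.26 to 4.70 log2 in wildtype, 9.12 to 9.52 in R167Q and 8.42 to 9.28 in P81S. R167Q replicate 3 at 9.12 and P81S replicate 1 at 8.42 were thus far from wildtype in these genes but not in the Ssty families. The wildtype means of the single-copy genes lay below the median of the control block, 5.908 log2. The part of the cell clones in the Y-linked differences from wildtype was not tested. Gm21064 and Sly, a Y-linked regulator of sperm genes, gave the only call among joint probe sets between R167Q and wildtype. They read 4.03, 4.42 and 4.41 in wildtype, 6.20, 5.29 and 5.62 in R167Q, and 4.43, 4.33, 4.70 and 4.42 in P81S. Here P81S overlapped wildtype, and all 3 R167Q arrays were higher, by 1.42 ± 0.21 (limma's adjusted p = 0.0357). That call was lost in 10 of 22 alternatives, with adjusted p up to 0.175, among them each fit without P81S replicate 2, 3 or 4, without any wildtype array or without R167Q replicate 3. P81S was lower than R167Q by -1.24 (limma's adjusted p = 0.00217), which held in all 22. Of 13 probe sets with 1 gene of the Xlr, Slx and Sly families, 7 were called higher in R167Q than in wildtype and 0 lower, at a median of 1.40. Since 8 probe sets list Sly alone, these 13 are mostly of 1 gene and do not stand for the families as a whole. The brightest probe set of Sly alone was higher in R167Q by 1.41 (limma's adjusted p = 0.0479).

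The largest families on this array were mostly near the floor and unchanged. Of 125 olfactory receptor probe sets, at a median level of 4.36 log2, 4 were lower and 2 higher, and of 87 for vomeronasal and taste receptors 4 were lower and 0 higher. Without P81S replicate 2, 3 or 4 or wildtype replicate 2 the olfactory count was 2 lower, and the vomeronasal count was 1 to 2 without P81S replicate 1 or 3 or wildtype replicate 2 or 3. Of 46 immunoglobulin and T cell receptor probe sets 2 were higher and 2 lower, the latter from the gamma chain, where Trgv2, Trgv4 and Trgv6 fell by 1.07. The higher count was 0 without P81S replicate 1 or 2 or wildtype replicate 1 or 2, and the lower count was 1 without wildtype replicate 2. Limma called 0 of 16 defensin probe sets, 0 of 12 for lectin and killer cell receptors, 0 of 7 for cytochrome P450 and 0 of 19 for keratins and epidermal genes. In the last, the small proline-rich genes Sprr2a1 to Sprr2a3 of squamous epithelium read 13.35 log2 in P81S replicate 1 against 9.53 to 11.25 in the other P81S arrays, and their difference of 1.97 had limma's adjusted p = 0.054. Cyp2a4 and Cyp2a5, steroid and coumarin hydroxylases, read 10.14 in P81S replicate 1 against 6.54 to 7.77, with a difference of 1.63 (limma's adjusted p = 0.0761). The same array was the highest of the P81S arrays in squamous, gut and glandular, and yolk sac and liver markers, as given above, and the part of those tissues was not tested.

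Probe sets of single genes give a second view where a listed gene has its own. Across 1238 pairs of a joint probe set and that of 1 of its genes, from 961 joint probe sets, the P81S differences correlated with r = 0.75, as a description over pairs that share arrays and genes. Within families of 1 stem r was 0.86 over 493 pairs, with a median gap of 0.19, and with genes of other symbols it was 0.34 over 433 pairs, with a gap of 0.31. Where the joint probe set was called, in 330 pairs, the single gene was called the same way in 181, not called in 133 and called the opposite way in 16. The share called the same way was 58.9% within families and 42.8% with other symbols. Bag4 and Ddhd2 illustrate an opposite case, since their joint probe set differed by 0.59 and Ddhd2 alone by -0.63. In the 112 joint probe sets of 2 genes with both genes measured alone, the genes were called in opposite directions in 1, and its joint probe set was not called. Some gene pairs recur often among the 112, as Gapdh with Gm12070 and Ino80 with Rpl35a, so fewer separate pairs were compared.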

How the data were processed

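Per the labels' protocols, total RNA of each tumour was primed with oligo(dT), amplified by in vitro transcription and biotinylated. The deposited values are log2 intensities, 1 per probe set and array. RMA and Partek are named, with no version, in the submitters' processing notes; the settings and the build are not given in the sources used here. If arrays were set to 1 distribution, a change in total RNA is lost. The number of arrays limits the precision, and scanner files were not used here.

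Gene symbols came from the platform annotation, and places and strands from a RefSeq gene table. All 10 arrays entered 1 model with 3 group means in limma 3.58.1 (R 4.3.3, two-sided, variance trend, 7 residual degrees of freedom). P-values were adjusted by Benjamini-Hochberg over the 28944 probe sets outside the control block, and calls are at 0.05. The fit was tested on simulated data. SEs are the model's. Sequences were aligned end to end, without cost for end gaps, with Biopython 1.88. Where several probe sets carry the same gene list, the one with the highest mean was described. Named probe sets were the 10 largest rises and falls of each comparison among called probe sets whose groups do not overlap and the 3 with the smallest p of each family list, and a further 20 gene lists were chosen after their values were seen. Names on no such list, as Bag4 with Ddhd2, were also chosen so. The family and marker lists and the probe sets were chosen with earlier results of these data known. Ddx3y was not analysed here. Alternatives were other normalizations, variance models, filters, array weights, blocks for replicate number and clone, and leaving out arrays.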

Additional observations from a re-analysis of the deposited data

Results flagged for a closer look

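Of 110 probe sets or gene lists described, 7 had 1 P81S array far from the other 3, where chance flags about 1 in 20. In 6 of the 7 that array was P81S replicate 1, always on the low side. It read 10.05 log2 for 1110002L01Rik with Kif3c against 10.27 to 10.29 in the other P81S arrays, 12.96 for Cox7c with Gm10012 against 13.14 to 13.17, and 12.26 for Snrpn with Snurf against 12.49 to 12.53. For Magea3 with Magea8 it read 3.90 against 4.14 to 4.17. The probe sets of Mir467b with Mir467d and of Mir467b with Mir467c and Mir467d, which share their values, both read 3.34 against 3.61 to 3.62. P81S replicate 4 stood apart for Magea1, Magea2, Magea3, Magea5, Magea6 and Magea8, at 4.00 against 4.74 to 4.84. The cause was not tested.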

How the results depend on the processing

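Only named differences called in the main fit were followed, 140 in all, and none changed direction. Many had been named because they were called and their groups did not overlap, and leaving out an array cannot reverse such a difference. The lack of a reversal was thus largely fixed by that choice. Of the 140, 90 were called under every alternative tried. Of 3306 values under alternatives, 3042 kept their call and 264 lost it. Counts of calls moved as follows. With array weights 265 probe sets were higher in P81S than in wildtype (176 without weights), and 2 in R167Q than in wildtype. With the replicate number as a replicate block, the counts were 116 higher and 359 lower in P81S against wildtype, 70 and 181 in P81S against R167Q, and 0 higher in R167Q against wildtype. Deviations from the group means correlated at -0.229 to 0.135 between same-numbered arrays and at -0.326 to 0.38 between differently numbered ones. These correlations thus cannot tell whether the numbers pair the arrays. The single R167Q call among joint probe sets was also lost, with 0 left, when dim probe sets or the genes of chromosomes 8, 11 and Y were left out. Leaving out the third genotype, or P81S replicates 1 and 2, did the same. With an array left out, P81S against wildtype had 120 to 234 higher and 347 to 453 lower, P81S against R167Q 50 to 145 and 147 to 307, and R167Q against wildtype 0 to 5 and 0 to 0. Identical values counted once, an alternative chosen after seeing the data, gave 168 and 381, 108 and 261, and 1 and 0. Many probe sets lie near the floor, where a difference is compressed.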
